A study of Homo sapiens with 8 samples.

Results

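The KLF (Krüppel-like factor) genes encode zinc finger transcription factors. The 10 genes described here are KLF2, KLF3, KLF4, KLF5, KLF6, KLF7, KLF9, KLF10, KLF11 and KLF13, chosen by their symbols out of 58870 genes in the deposited count table. Expression was measured by RNA sequencing in CFPAC-1 cells, a long-established line of human pancreatic ductal adenocarcinoma, in 4 samples carrying an empty vector and 4 samples carrying an ADRA2A transgene. ADRA2A encodes the alpha-2A adrenergic receptor, which couples to Gi and lowers cyclic AMP. All 8 cultures were grown for 72 h in IMDM with serum and antibiotics and received no drug, so the transgene is the labelled difference between the groups. The promoter that drives the transgene, the number of clones behind each line and whether the samples of a group were separate cultures are not given in the sources used here, so p-values measure the spread between these samples, which may be technical.

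KLF proteins carry 3 C2H2 zinc fingers at or near their C-terminal end. Through these they bind GC boxes and CACCC boxes in promoters and enhancers, sites they share with the related SP proteins. Outside the fingers they differ, and the family is usually divided by partner. KLF2, KLF4, KLF5, KLF6 and KLF7 act largely as activators through acetyltransferases. KLF3 recruits the corepressor CtBP, and KLF9, KLF10, KLF11 and KLF13 recruit the corepressor SIN3A. In gut and pancreatic epithelium KLF4 is known for differentiation and cell cycle exit, and KLF5 for proliferation and for the epithelial state of ductal tumours.

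The coding DNA of the third finger is shown to make the shared DNA-binding region visible. Members that changed in opposite directions are included, and at least 1 member of each partner class. Each run covers 63 bases of the reference transcript in GENCODE release 44 on GRCh38, 5′ to 3′ on the coding strand, and capitals mark the codons of the 2 cysteines and 2 histidines that hold the zinc ion.
KLF5, activator, chr13:73075815-73075877, plus strand: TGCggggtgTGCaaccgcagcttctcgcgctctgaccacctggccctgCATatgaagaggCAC
KLF2, activator, chr19:16326963-16327025, plus strand: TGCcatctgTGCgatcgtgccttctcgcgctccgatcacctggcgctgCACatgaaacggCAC
KLF6, activator, chr10:3779545-3780122, minus strand, with an intron inside the stretch: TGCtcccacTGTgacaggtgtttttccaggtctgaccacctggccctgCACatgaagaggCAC
KLF3, CtBP class, chr4:38697189-38697251, plus strand: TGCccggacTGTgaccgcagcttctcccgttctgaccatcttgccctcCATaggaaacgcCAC
KLF9, SIN3A class, chr9:70387836-70387898, minus strand: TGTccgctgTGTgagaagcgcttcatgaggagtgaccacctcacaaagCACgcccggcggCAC
KLF13, SIN3A class, chr15:31372117-31372179, plus strand: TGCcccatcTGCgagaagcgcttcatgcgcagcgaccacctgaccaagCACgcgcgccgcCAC
All 10 members held the 3-finger pattern over 81 codons. Over those 243 bases, DNA identity between pairs of members ran from 55.1% (KLF3 with KLF9) to 83.5% (KLF6 with KLF7), with a median of 65.0% over the 45 pairs. KLF2 and KLF4 shared 95.1% of the encoded residues, as did KLF6 and KLF7. The longest run of identical bases between any pair of reference transcripts was 26, in KLF6 and KLF7, and 0 entries of each member's 8 deposited counts had decimals, so no fractional division of reads with another gene is visible in them. Of 10 KLF pseudogenes in the table, 9 were at 0 in all 8 libraries and KLF3P1 reached 1 count.

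Library totals lay between 14427040 and 17528910 estimated counts, and mitochondrial genes took between 3.93% and 4.29% of each library. ADRA2A had 0 counts in all 4 empty-vector libraries and 112, 142, 154 and 172 counts in the ADRA2A libraries, so each library matched its label. Ductal epithelial markers summed to between 12194 and 13163 counts-per-million in all 8 libraries, although CFTR had only 4 to 20 counts. Single markers on that list moved in both directions. Of 9 tested, 4 were higher and 4 lower at an edgeR adjusted p under 0.05, against 21.6% and 21.1% of all genes tested. MUC1 was higher in the ADRA2A cells (log2 fold change 0.79, edgeR adjusted p = 4.76e-12) and KRT7 lower (-0.43, edgeR adjusted p = 2.74e-09). Markers of acinar and endocrine cells summed to at most 0.270 counts-per-million, with all 3 endocrine markers at 0. Of 6 fibroblast markers only LUM, with 7 to 25 counts, passed the filter on low counts, and the 6 summed to between 0.901 and 2.16 counts-per-million. Of 4 leukocyte markers CD3E and MS4A1 were at 0 and PTPRC had at most 4 counts. CD68, a lysosomal protein gene also on that list, had 1345 to 1996 counts and was higher in the ADRA2A cells (log2 fold change 0.32, edgeR adjusted p = 4.22e-06), and the list summed to 88.2 to 94.5 counts-per-million in the empty-vector libraries and 108 to 119 in the ADRA2A libraries. The 4 endothelial markers summed to 2.06 to 2.70 and 2.63 to 3.36 counts-per-million, with CDH5 and VWF at most at 1 and 4 counts, PECAM1 higher (log2 fold change 1.66, edgeR adjusted p = 8.12e-05) and KDR lower (-1.35, edgeR adjusted p = 0.00234). The part of these markers in the results below was not tested.

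All 10 members passed the filter on low counts. To compare levels between genes, counts-per-million (CPM) with trimmed mean of M values (TMM) scaling were divided by the length of the reference transcript in kilobases. KLF5 was the most abundant member, with 74.2 ± 1.0 CPM per kb in the empty-vector cells and 85.1 ± 1.62 in the ADRA2A cells (SD, n = 4 each). KLF6 followed with 36.4 ± 2.30 and 30.0 ± 1.04 CPM per kb. KLF10 stood at 27.2 ± 0.42 and 27.7 ± 1.16, and KLF3 at 20.3 ± 0.23 and 21.8 ± 1.02. These 4 genes were ordered KLF5, KLF6, KLF10 and KLF3 in both groups, and the ranges of neighbours in the order did not overlap within a group. With the union of all annotated exons as the length, the order was the same and the ranges of KLF6 and KLF10 overlapped in the ADRA2A cells.

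Below them, KLF4 and KLF13 could not be ordered in the empty-vector cells, where their ranges overlapped at 7.71 ± 0.53 and 7.31 ± 0.42 CPM per kb (SD, n = 4 each). In the ADRA2A cells KLF13, at 10.3 ± 0.43 CPM per kb, lay above KLF4, at 6.65 ± 0.75, with no overlap. KLF7 had 3.62 ± 0.39 and 3.55 ± 0.26 CPM per kb, and KLF11 had 2.53 ± 0.27 and 2.36 ± 0.23. KLF2 and KLF9 were the lowest, at 1.05 ± 0.12 and 0.300 ± 0.07 CPM per kb in the empty-vector cells and 0.666 ± 0.12 and 0.408 ± 0.08 in the ADRA2A cells, where their ranges overlapped. Of the summed level of the 10 genes, KLF5 held 41.1% in the empty-vector cells and 45.2% in the ADRA2A cells, and KLF6 held 20.2% and 15.9%. The sum itself lay between 176 and 187 CPM per kb in the empty-vector libraries and between 183 and 192 in the ADRA2A libraries, so the groups overlapped.

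**Figure D1:**
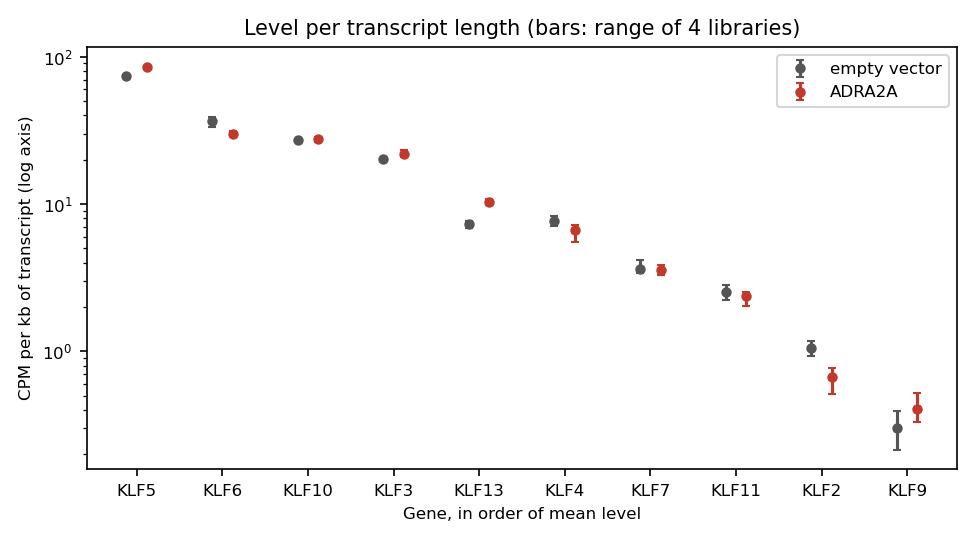
CPM per kilobase of reference transcript (log axis) for each KLF gene, with the mean as a point and the range of the 4 libraries of a group as a bar. KLF5 stands above all others in both groups, and KLF13 and KLF4 overlap in the empty-vector cells but not in the ADRA2A cells.

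The comparison of the groups asked which KLF genes changed when ADRA2A was overexpressed. KLF13, KLF5 and KLF3 were higher in the ADRA2A cells and KLF2, KLF6 and KLF4 were lower, by edgeR's quasi-likelihood test with a Benjamini-Hochberg adjusted p-value under 0.05 over the 14785 genes tested. KLF7, KLF9, KLF10 and KLF11 did not pass. The 6 of 10 members called compare with 42.7% of all genes tested. The 3 called higher compare with 21.6% of all genes, and the 3 called lower with 21.1%. In 5 members every library of 1 group lay above every library of the other, against 39.2% of all genes tested. The median log2 fold change of the 10 members was -0.002 and that of all genes tested was 0.001, so the members moved in both directions about 0. The changes were small, with KLF13 and KLF2 alone reaching an absolute log2 fold change of 0.5, a size that 12% of all genes tested reached with a call. In bulk RNA a change in every cell cannot be told apart from a change in the share of cells that express a gene.

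**Figure D2:**
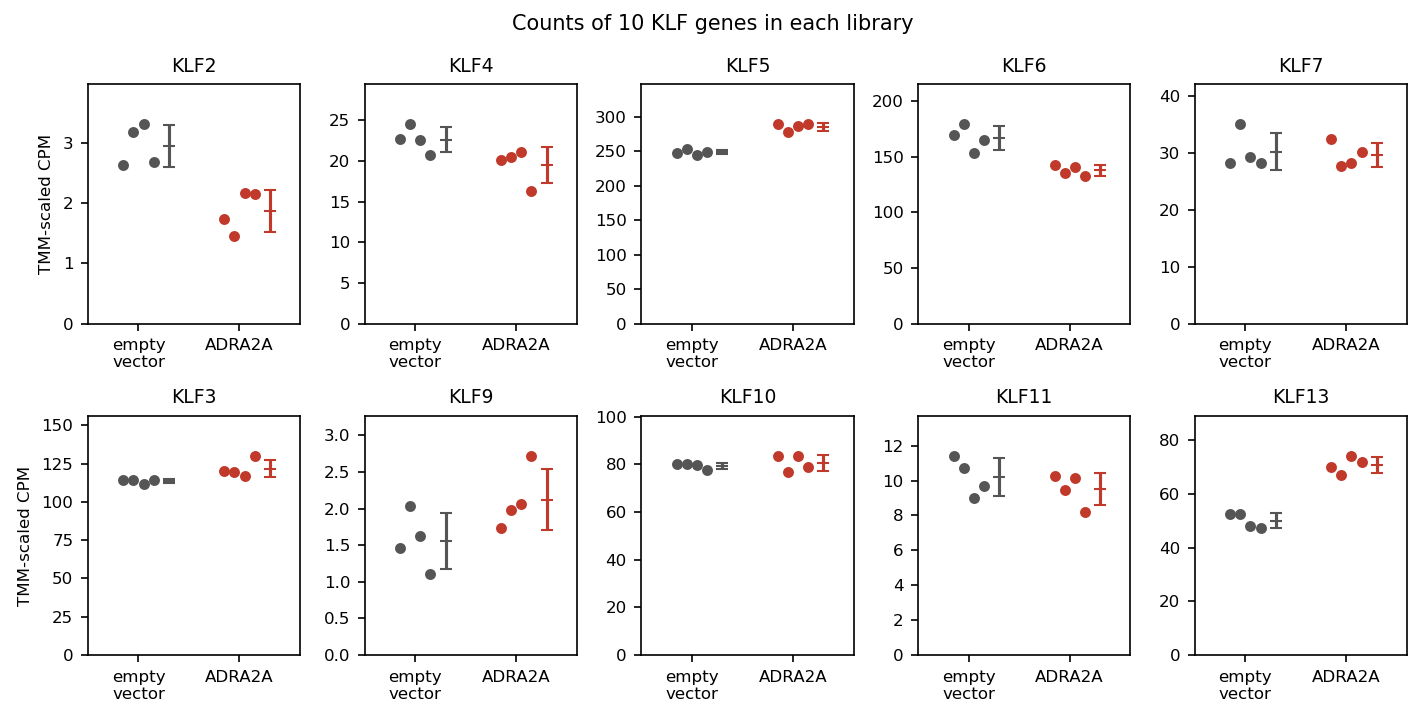
TMM-scaled CPM of each KLF gene in each library (points, replicates 1 to 4 from left to right), with mean and SD of the group beside them and each vertical axis starting at 0. KLF13 and KLF5 rise and KLF6 and KLF2 fall with no overlap between groups, while KLF7, KLF10 and KLF11 overlap widely.

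Among the activators, KLF5 was the only one called higher. KLF5 had 247, 253, 245 and 249 CPM in empty-vector replicates 1 to 4, and 289, 277, 286 and 289 CPM in ADRA2A replicates 1 to 4. All ADRA2A libraries lay above all empty-vector libraries, and the 4 libraries of each group were close together, with coefficients of variation of 1.35% and 1.90%. The log2 fold change of KLF5 (ENSG00000102554.14; chromosome 13, 73054976 to 73077541, plus strand) was 0.20 ± 0.03 (SE; edgeR quasi-likelihood test, adjusted p = 4.73e-05), a rise of 14.8% with a 95% interval of 9.54% to 20.2%. This was a small proportional rise in the member with the highest level per length.

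KLF6, a gene induced early after wounding and growth factor stimulation and often described as a tumour suppressor, went the other way. Its values were 170.0, 179, 154 and 165 CPM in the empty-vector libraries and 143, 135, 140.5 and 132 CPM in the ADRA2A libraries. The lowest empty-vector library, replicate 3, was still above the highest ADRA2A library. For KLF6 (ENSG00000067082.15; chromosome 10, 3775996 to 3785281, minus strand) the fitted log2 fold change was -0.28 ± 0.04 (SE; edgeR quasi-likelihood test, adjusted p = 4.48e-05). KLF6 fell by 17.5%, with a 95% interval of the change from -22.7% to -12%.

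KLF2, best known as a flow-responsive and quiescence factor of endothelium and T cells, was scarce, with 22 to 57 counts per library. It had 2.64, 3.19, 3.31 and 2.68 CPM in the empty-vector libraries and 1.73, 1.45, 2.18 and 2.15 CPM in the ADRA2A libraries. Every ADRA2A library was below every empty-vector library. KLF2 (ENSG00000127528.5; chromosome 19, 16324826 to 16328685, plus strand) had the lowest log2 fold change of the members, -0.65 ± 0.21 (SE; edgeR quasi-likelihood test, adjusted p = 0.0197). The 95% interval of its change was wide, from -53.1% to -12.9%. Leaving out empty-vector replicate 3 gave an adjusted p-value of 0.0590 and leaving out ADRA2A replicate 2 gave 0.0627, over a range of 0.0170 to 0.0627 across the alternatives.

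KLF4 (ENSG00000136826.15; chromosome 9, 107484852 to 107490482, minus strand), one of the pluripotency reprogramming factors and a differentiation factor of epithelia, fell narrowly past the threshold. Its values were 22.7, 24.5, 22.6 and 20.7 CPM in the empty-vector libraries and 20.1, 20.5, 21.1 and 16.3 CPM in the ADRA2A libraries. The groups overlapped, and ADRA2A replicate 4 lay below the other 7 libraries. KLF4 had a fitted log2 fold change of -0.21 ± 0.08 (SE; edgeR quasi-likelihood test, adjusted p = 0.0484). The call was lost in 7 of 15 alternatives, namely DESeq2 at 0.0645 and the fits without empty-vector replicate 1, 2 or 3 or ADRA2A replicate 1, 2 or 4, over a range of adjusted p-values of 0.0249 to 0.188. Without ADRA2A replicate 4 the log2 fold change was -0.13.

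KLF7 (ENSG00000118263.15; chromosome 2, 207074137 to 207173856, minus strand), which is best known from neuronal development, was not called. It had 28.3, 35.1, 29.3 and 28.3 CPM in the empty-vector libraries and 32.5, 27.7, 28.3 and 30.3 CPM in the ADRA2A libraries. The groups overlapped widely, and the highest value belonged to empty-vector replicate 2. The log2 fold change of KLF7 was -0.03 (edgeR adjusted p = 0.811), with a 95% interval of the change from -11.8% to 9.45%. Without empty-vector replicate 2 its sign turned, to 0.05.

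KLF3 (ENSG00000109787.13; chromosome 4, 38664197 to 38701517, plus strand), the CtBP-recruiting member, had 114, 114, 112 and 114 CPM in the empty-vector libraries. In the ADRA2A libraries it had 120.3, 119.5, 117 and 130.1 CPM. The groups did not overlap, although the gap between them was small and ADRA2A replicate 4 stood above the others. The log2 fold change of KLF3 was 0.10 ± 0.04 (SE; edgeR quasi-likelihood test, adjusted p = 0.0480), a rise of 7.36% with a 95% interval of 1.23% to 13.9%. The call was lost in 10 of 15 alternatives, among them DESeq2 at 0.0603 and the fit without ADRA2A replicate 4 at 0.172, over a range of 0.0335 to 0.172. KLF3-AS1, a long non-coding RNA gene that overlaps KLF3 on the opposite strand, had 0, 1, 3 and 1 counts in the empty-vector libraries and 17, 3, 18 and 16 in the ADRA2A libraries. KLF3 itself had 1682 to 2057 counts, and the use of strand in counting is not given in the sources used here.

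Of the 4 SIN3A-recruiting members KLF13 alone was called. KLF13 (ENSG00000169926.11; chromosome 15, 31326835 to 31435665, plus strand), first described as a late activator of the chemokine gene CCL5 in T cells, had 52.5, 52.5, 47.9 and 47.3 CPM in the empty-vector libraries. It had 69.96, 67.2, 74.2 and 71.9 CPM in the ADRA2A libraries. The groups were well apart, with the lowest ADRA2A library far above the highest empty-vector library. KLF13 had the highest log2 fold change of the members, 0.50 ± 0.05 (SE; edgeR quasi-likelihood test, adjusted p = 1.35e-07), a rise of 41.6% with a 95% interval of 31.5% to 52.4%. CCL5 had 1 to 9 counts per library and was not tested.

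KLF10 and KLF11 were both first described as genes induced early by TGF-beta, and neither was called. KLF10 (ENSG00000155090.15; chromosome 8, 102648784 to 102655725, minus strand) had 80.2, 79.9, 79.9 and 77.6 CPM in the empty-vector libraries and 83.3, 76.8, 83.5 and 78.7 CPM in the ADRA2A libraries. The ADRA2A libraries fell on both sides of the empty-vector range. KLF10 had a log2 fold change of 0.02 (edgeR adjusted p = 0.715). Its 95% interval, -4.61% to 8.05%, was the narrowest among the members not called. KLF11 (ENSG00000172059.11; chromosome 2, 10042849 to 10054836, plus strand) had 11.4, 10.7, 9.0 and 9.69 CPM against 10.2, 9.44, 10.1 and 8.22 CPM. The libraries of the groups were interleaved, with a log2 fold change of -0.10 (edgeR adjusted p = 0.477) and a 95% interval from -20.3% to 8.92%.

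KLF9 (ENSG00000119138.4; chromosome 9, 70384604 to 70414657, minus strand), a gene induced by glucocorticoid and thyroid hormone, had the fewest counts, 17 to 43 per library. It had 1.46, 2.04, 1.63 and 1.11 CPM in the empty-vector libraries and 1.73, 1.98, 2.06 and 2.72 CPM in the ADRA2A libraries. The groups overlapped, with ADRA2A replicate 4 highest. KLF9 had a fitted log2 fold change of 0.45 ± 0.25 (SE; edgeR quasi-likelihood test, adjusted p = 0.168). Its 95% interval ran from -5.66% to 97.2%, which includes both 0 and the 41.6% of KLF13.

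**Figure D3:**
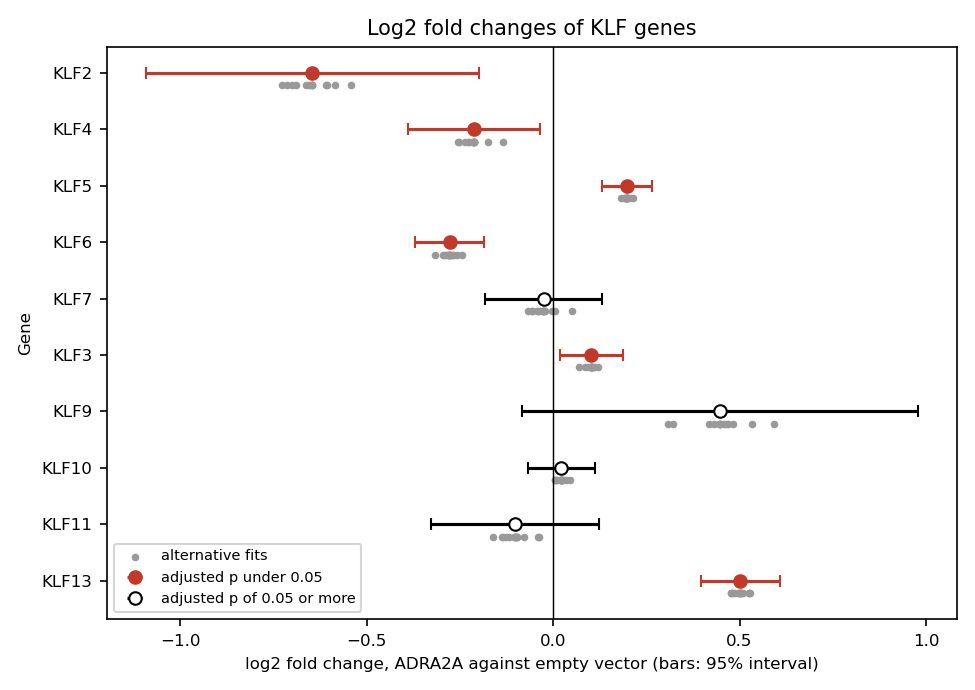
Log2 fold change of each KLF gene, ADRA2A against empty vector, with its 95% interval (edgeR), filled where the adjusted p-value was under 0.05, and the values of the alternative fits as grey points beneath. Only KLF7 has fits on both sides of 0, and the intervals of KLF2 and KLF9 are the widest.

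Because nearby genes can shift together in such a comparison, each member was set beside the 10 tested genes on each side of it. Over all genes tested 21.6% were called higher and 21.1% lower. KLF13 lay in a stretch of 3.70 Mb whose 20 neighbours centred on a median log2 fold change of 0.34. Of them 17 were positive, 10 were called higher and 1 lower, and 8 had a log2 fold change above that of KLF13. Some are near-identical copies of the GOLGA8 family, whose counts are uncertain. The part of this shift in the rise of KLF13 was not tested. KLF3 differed in sign from most of its 20 neighbours, which spanned 13.7 Mb. Of them 13 were called lower and 2 higher, with a median of -0.28, and 4 had a log2 fold change above that of KLF3.

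The other members lay among neighbours with medians near 0, between -0.09 for KLF6 and 0.08 for KLF2. These neighbours spanned from 1.24 Mb for KLF2 to 17.7 Mb for KLF5. KLF2 had a lower log2 fold change than all 20 of its neighbours, of which 6 were called higher and 3 lower. For KLF6 2 neighbours were called higher and 6 lower, and 5 were lower than KLF6 itself. For KLF5 2 were called higher and 7 lower, and 3 were higher than KLF5. KLF12, the next tested gene after KLF5 on chromosome 13, was among those called lower and is described again below with the other family genes.

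**Figure D4:**
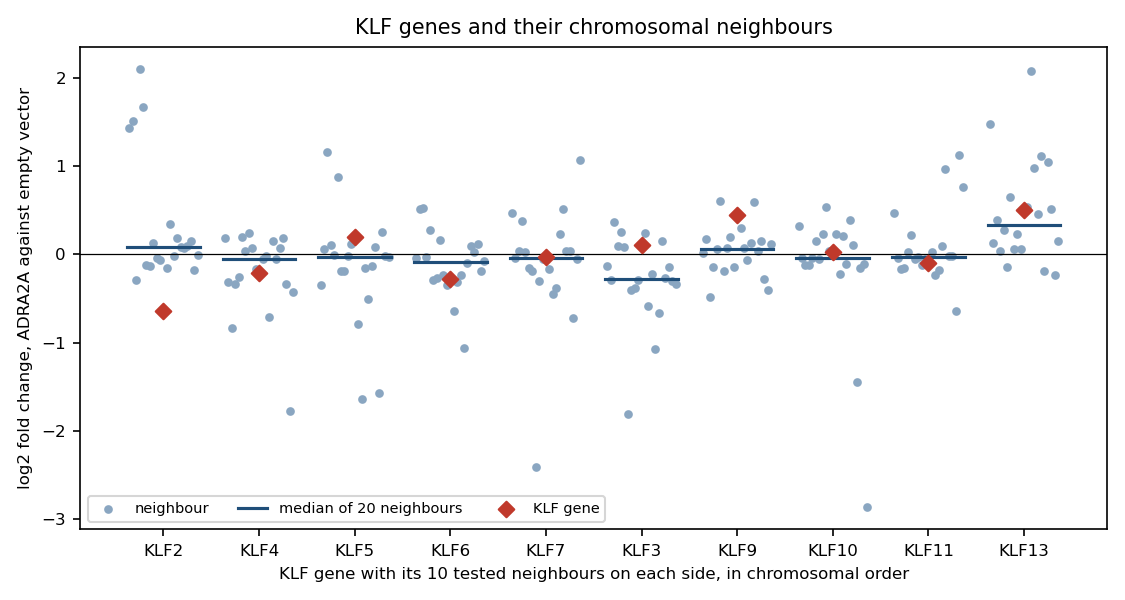
Log2 fold change of each KLF gene (diamond), of its 10 tested neighbours on each side in chromosomal order (points) and their median (line). The neighbours of KLF13 lie mostly above 0 and those of KLF3 mostly below 0, while KLF2 lies below all 20 of its neighbours.

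The bases before the transcription start are shown for the 2 members with the largest rise and the 2 with the largest fall among those called, since these genes differ in direction. Each run is the 250 bases before the RefSeq start on GRCh38.p14 that matches the reference transcript, 5′ to 3′ on the gene's strand, and capitals mark GGGCGG (the GC box) and CACCC (the CACCC box) read on either strand.
KLF13, higher, chr15:31326585-31326834, plus strand: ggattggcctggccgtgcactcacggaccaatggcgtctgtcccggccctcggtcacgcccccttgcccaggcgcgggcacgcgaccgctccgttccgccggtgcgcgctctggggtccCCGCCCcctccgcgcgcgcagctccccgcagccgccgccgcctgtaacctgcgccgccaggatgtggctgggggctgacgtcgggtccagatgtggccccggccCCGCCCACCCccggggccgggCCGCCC
KLF5, higher, chr13:73058755-73059004, plus strand: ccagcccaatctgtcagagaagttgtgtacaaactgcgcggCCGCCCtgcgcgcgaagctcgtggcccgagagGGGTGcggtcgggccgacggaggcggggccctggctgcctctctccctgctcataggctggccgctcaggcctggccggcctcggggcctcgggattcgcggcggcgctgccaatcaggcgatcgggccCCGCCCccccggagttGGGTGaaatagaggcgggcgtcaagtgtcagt
KLF2, lower, chr19:16324576-16324825, plus strand: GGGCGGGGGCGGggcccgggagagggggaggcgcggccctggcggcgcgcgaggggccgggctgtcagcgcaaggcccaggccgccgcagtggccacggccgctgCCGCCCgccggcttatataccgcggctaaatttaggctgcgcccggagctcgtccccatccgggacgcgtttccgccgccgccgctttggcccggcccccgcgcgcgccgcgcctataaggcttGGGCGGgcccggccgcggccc
KLF6, lower, chr10:3785210-3785459, minus strand: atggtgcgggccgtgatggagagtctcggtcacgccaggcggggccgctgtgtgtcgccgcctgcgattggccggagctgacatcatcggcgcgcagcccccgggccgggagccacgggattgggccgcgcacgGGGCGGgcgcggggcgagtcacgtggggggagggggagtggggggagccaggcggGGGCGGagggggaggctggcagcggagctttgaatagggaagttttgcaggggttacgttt
A RefSeq window was found for 8 of the 10 members, all but KLF3 and KLF10, with 1 window used per gene. In 7 of them the start was that of the reference transcript, and that of KLF11 lay 279 bases from it. GGGCGG was present in 6 of the 8, against 42.6% of all 35116 RefSeq windows, and KLF13 had 3 matches, KLF5 had 2, KLF2 had 4 and KLF6 had 2. The windows of these 4 genes were 78.8%, 70.8%, 80.0% and 72.4% G and C, against a median of 58.0% over all windows. CACCC was present in 3 of the 8, against 54.7% of all windows. The cyclic AMP response element TGACGTCA was in 0 of the 8 windows and in 1.6% of all windows, and its core TGACG was in 3 of the 8 (KLF4, KLF5 and KLF13) against 21.2%. The CArG box bound by serum response factor was in 0 of the 8 and in 1.2% of all windows. GGGCGG was found in members called higher and in members called lower. CACCC was found in KLF5 and KLF13, called higher, and in KLF7, not called. It was in none of KLF2, KLF4 and KLF6, called lower, or KLF9 and KLF11, not called. KLF3, also called higher, had no window, and a relation of CACCC to direction was not tested.

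The remaining KLF and SP genes bind similar sites. Of 17 such genes 7 were tested, of which 2 were called higher and 3 lower, against 21.6% and 21.1% of all genes tested. The median log2 fold change of the 7 was 0.09. KLF1, KLF8, KLF14, KLF15, KLF17, KLF18, SP5, SP8 and SP9 did not pass the filter, and SP7 had no single row in the deposited count table. KLF12, a CtBP-recruiting repressor like KLF3, fell from 14.5 ± 1.33 to 8.38 ± 0.588 CPM (SD, n = 4 each), or by a log2 fold change of -0.79 ± 0.10 (SE; edgeR quasi-likelihood test, adjusted p = 1.84e-06). That value is larger in size than the fitted change of any of the 10 members, a difference that was not tested. KLF16, a SIN3A-recruiting gene, fell by 0.19 on the log2 scale (edgeR adjusted p = 0.0314).

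The ubiquitous GC box factor SP1 rose from 174 ± 8.15 to 219 ± 15.9 CPM (SD, n = 4 each; log2 fold change 0.33, edgeR adjusted p = 1.27e-05). SP3, its close relative, rose by a log2 fold change of 0.15 (edgeR adjusted p = 0.00325), while SP4 fell by 0.37 on the log2 scale (edgeR adjusted p = 0.0129). SP2 and SP6 did not pass the test, at log2 fold changes of 0.09 and 0.28.

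The cofactors through which KLF proteins act were all tested. Of 16 genes (median log2 fold change 0.08) 6 were called higher and 3 lower, against 21.6% and 21.1% of all genes tested. Both CtBP genes fell, CTBP1 from 192 ± 3.98 to 165 ± 4.40 CPM and CTBP2 from 179 ± 4.42 to 147 ± 4.96 CPM (SD, n = 4 each), at log2 fold changes of -0.22 and -0.29 (edgeR adjusted p = 4.51e-05 and 3.85e-06). The deacetylase gene HDAC2 also fell, by 0.22 on the log2 scale, whereas HDAC1 rose by a log2 fold change of 0.20 (edgeR adjusted p = 8.19e-04 and 4.84e-05). The SIN3 complex gene SUDS3 rose by 0.15 and the acetyltransferase gene KAT2B by 0.36 on the log2 scale (edgeR adjusted p = 0.00799 and 0.00782).

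Upstream of KLF2 and KLF4, the ERK5 kinase cascade acts through MEF2 factors, and several ubiquitin ligases degrade KLF proteins. Of 12 such genes (median log2 fold change 0.02) 2 were called higher and 0 lower, against 21.6% and 21.1% of all genes tested. The 2 were the transcription factor gene MEF2A, with a log2 fold change of 0.25 (edgeR adjusted p = 1.5e-04), and the kinase gene MAP3K2, with 0.16 (edgeR adjusted p = 0.0207). The ligase gene WWP1, which targets KLF2 and KLF5, had a log2 fold change of 0.07, and FBXW7 had -0.05, neither past the test.

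Of 16 genes known from other systems as targets of KLF proteins 13 were tested, with 3 called higher, 5 lower and a median log2 fold change of -0.10. LGALS3, which encodes galectin 3 and is repressed by KLF3, rose from 375 ± 18.8 to 513 ± 6.72 CPM (SD, n = 4 each; log2 fold change 0.45, edgeR adjusted p = 3.23e-09). KRT19, a ductal keratin activated by KLF4, rose by a log2 fold change of 0.20 (edgeR adjusted p = 7.64e-05), and the pancreatic factor PDX1 by 0.48 (edgeR adjusted p = 0.0363). CCND1, the cyclin D1 gene activated by KLF5, fell from 480 ± 5.67 to 356 ± 4.93 CPM (SD, n = 4 each; log2 fold change -0.43, edgeR adjusted p = 6.75e-10). CCNB1, the cyclin B1 gene, fell by 0.34 and TAGLN, a contractile gene repressed by KLF4, by 0.88 on the log2 scale (edgeR adjusted p = 1.64e-06 and 4.42e-09).

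CDKN1A, the cell cycle inhibitor gene activated by KLF4 and KLF6, had a log2 fold change of -0.01 and did not pass the test (edgeR adjusted p = 0.939). SMAD7, repressed by KLF10 and KLF11, had -0.07 (edgeR adjusted p = 0.580). THBD and S1PR1, genes activated by KLF2 in endothelium and T cells, were named after their values were seen. THBD fell by 0.31 on the log2 scale (edgeR adjusted p = 4.37e-04). S1PR1 had 33, 21, 30 and 38 counts in the empty-vector libraries and 10, 2, 7 and 6 in the ADRA2A libraries, a log2 fold change of -2.23 (edgeR adjusted p = 5.17e-05). NOS3, also on the list of targets, had 0 to 11 counts per library and was not tested. PDGFA, KRT4 and KRT13 were tested and not called, at log2 fold changes of -0.16, -0.10 and -0.02. Targets were therefore called in both directions, at shares of 3 and 5 of 13 against 21.6% and 21.1% of all genes.

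For the highest and the lowest member, the genes with the most similar profile were sought by the Pearson correlation of log2 CPM over the 8 libraries, which include the group difference itself. For KLF13 these were TPPP (r = 0.999), SOD2 (r = 0.996) and TMEM62 (r = 0.995), all higher in the ADRA2A cells, and 1427 tested genes had a correlation over 0.9. For KLF2 they were FGF11 (r = 0.981), TNFRSF1B (r = 0.981) and SLC12A8 (r = 0.975), all lower, and 223 genes had a correlation over 0.9.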

How the data were processed

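RNA sequencing was done on 4 empty-vector and 4 ADRA2A samples of CFPAC-1 cells, with groups and replicate numbers taken from the sample titles. The authors deposited RSEM estimated counts (expected counts) per gene and sample, unscaled, of which between 4.61% and 4.90% of the entries per sample had decimals. The submitters' processing notes name cutadapt, STAR, RSEM and DESeq2 and the build hg38. The versions, the annotation release and the use of strand are not given in the sources used here. Library totals of 14427040 to 17528910 counts limit the precision for genes of few counts, and 0 columns were unassigned.

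Counts were rounded to whole numbers. edgeR's filterByExpr kept 14785 of 58870 genes, TMM factors lay between 0.9938 and 1.0055, and the quasi-likelihood test (edgeR 4.0.16, R 4.3.3) was fitted on all genes with only the group in the model. P-values were adjusted by Benjamini and Hochberg's method across every gene tested. A standard error is the absolute log2 fold change divided by the square root of F. The fits were tested on simulated data with changes of at least 0.5 on the log2 scale. That test does not cover changes as small as those of KLF3, KLF4, KLF5 and KLF6. Alternatives were DESeq2 1.42.0, RLE and upper quartile factors, limma 3.58.1 voom, no filter beyond 1 count, at least 50 counts on average, a replicate block, each library left out, and union exon length for levels. Gene positions and MANE Select transcript lengths came from GENCODE release 44 on GRCh38, matching 99.4% of genes.

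All members were described. Other family genes were named if called, and of each other list the 3 genes with the smallest p-value in each direction among those called, with overlapping genes of at least 10 counts and the 3 most correlated genes of the highest and lowest member. Genes named outside this rule (CFTR, MUC1, KRT7, LUM, CD3E, MS4A1, PTPRC, CD68, CDH5, VWF, PECAM1, KDR, CCL5, KLF3P1, SP2, SP6, WWP1, FBXW7, CDKN1A, SMAD7, THBD, S1PR1, NOS3, PDGFA, KRT4, KRT13) were chosen after their values were seen. The members and lists were chosen with earlier results of these data known.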

Additional observations from a re-analysis of the deposited data

Results flagged for a closer look

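In 3 of the 20 sets of 4 libraries (10 genes in 2 groups), 1 library lay far from the other 3, by a gap that chance gives in about 1 of 20 sets. All 3 were empty-vector libraries. KLF7 had 35.1 CPM in empty-vector replicate 2, against 28.3 to 29.3 CPM in the other 3. KLF3 had 112 CPM in empty-vector replicate 3, against 114.0 to 114.1 CPM in the others. KLF10 had 77.6 CPM in empty-vector replicate 4, against 79.9 to 80.2 CPM in the others.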

How the results depend on the processing

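For KLF5, KLF6 and KLF13 the direction and the call were kept in all 15 alternatives. KLF3 lost its call with DESeq2 (log2 fold change 0.10), upper quartile factors (0.085) and no filter (0.10), and KLF4 with DESeq2 (-0.21), and the cause was not tested. KLF3 lost it in 10 of the 15 alternatives in all, KLF4 in 7 and KLF2 in 2. Over the 8 fits that each left out a library, with fewer samples, the log2 fold change lay between -0.73 and -0.54 for KLF2, 0.070 and 0.12 for KLF3, and -0.26 and -0.13 for KLF4. KLF7, never called, turned sign without empty-vector replicate 2 (0.05) and without ADRA2A replicate 2 (0.006), over a range of -0.068 to 0.05. The number of members called was 6 and lay between 3 and 6 in these fits, the lowest without empty-vector replicate 3 or ADRA2A replicate 2, and the number called lower lay between 1 and 3. With DESeq2, 4 members were called. The number of all genes called ran from 5703 to 6550. KLF2 and KLF9 did not reach a mean of 50 counts and have no value under that filter. The order of the 10 genes by level per length was the same with union exon length.

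Same-numbered libraries of the groups did not deviate together, with correlations between -0.04 and 0.07, and empty-vector replicate 1 correlated best with ADRA2A replicate 4 (0.11). With the replicate number as a block, 6400 genes and 6 members were called, with log2 fold changes of 0.50 for KLF13 and -0.65 for KLF2.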

Other observations

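The members were also compared within groups, after the group mean was taken from each log2 CPM value. Over the 8 libraries, the Pearson correlation of these deviations was positive for 34 of the 45 pairs of members, with a median of 0.37. It was highest for KLF6 with KLF11 (r = 0.82) and lowest for KLF3 with KLF4 (r = -0.83), the pair in which ADRA2A replicate 4 had the highest KLF3 and the lowest KLF4 value. These are descriptions over 8 libraries that share a scaling, with no test.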
